A study of Homo sapiens with 10 samples.

Results

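CXCL8, LTBR and 8 genes of the NF-kB pathway were followed through spheroids labelled as a breast cancer line, from wild-type cells and clones labelled SAMHD1-KO. The 10 genes were CXCL8, LTBR, TNFRSF1A, NFKB1, NFKB2, RELA, RELB, NFKBIA, NFKBIE and TNFAIP3, and all 10 were among the 13920 genes in the count table. CXCL8 and LTBR were picked because the difference between SAMHD1-KO clone A1 and WT was not the same in the 2 pairs of experiments, so they were selected on the measured values of A1 and WT in all 8 libraries of these groups, and their values are described here without a test. The other 8 were taken for their role in the pathway, whatever their values, and were tested.

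RNA was sequenced from 10 libraries of spheroids labelled T47D, an estrogen receptor-positive luminal breast cancer line, grown in 3D culture. In experiments 10 and 11 there was 1 library each of wild-type cells (WT) and of SAMHD1-KO clone A1. In experiments 15 and 16 there was 1 library each of WT, clone A1 and clone A2, which made 4 WT, 4 A1 and 2 A2 libraries. SAMHD1 is an enzyme that breaks down dNTPs, and the guide was directed at exon 5, which encodes part of its catalytic HD domain. Each KO group is labelled as a single clone, made by CRISPR-Cas9 in the study's methods. The study's methods call the libraries biological duplicates without saying that they came from separate cultures, and p-values measure only the spread between these libraries.

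Total counts ran from 40077369 to 51311482 per library, and the mitochondrial share of the counts from 7.79% to 13.9%, highest in A1 of experiment 15. SAMHD1 was at 53.9, 55.7, 49.8 and 56.4 CPM (counts scaled to the library total) in WT of experiments 10, 11, 15 and 16. It was at 6.44 and 6.15 CPM in A1 of experiments 15 and 16, but at 22.5 and 23.0 CPM in A1 of experiments 10 and 11, within the range of A2 (23.6 and 20.2 CPM in experiments 15 and 16). Every clone library thus held less of it than WT, but still some. The libraries labelled A1 in experiments 10 and 11 did not carry the SAMHD1 level of those labelled A1 in experiments 15 and 16, and whether both pairs are of 1 clone was not tested. A1 below means the libraries so labelled, and a difference of A1 between the experiment pairs is not shown to be one within a single clone. Across the 574 other genes that differed between A2 and A1 in experiments 15 and 16, the difference of A1 from WT in experiments 10 and 11 had a Pearson r of 0.0412 with that of A1, and of 0.026 with that of A2, in experiments 15 and 16. Across the 1145 other genes that differed between A1 and WT in experiments 15 and 16 these values were 0.0859 and 0.115. They were 0.0833 and 0.0863 across the 2281 that differed between A2 and WT, and 0.0456 and 0.0209 across all 13917 other genes. These correlations across genes were looked up after the SAMHD1 values were seen and are given as descriptions, and the comparisons from the separate experiment pairs share no library. Values of A1 are therefore given by experiment pair. Of 11 markers of luminal breast epithelium 8 were listed, at a summed 102 to 130 CPM, and KRT19, TFF1 and SPDEF were not. The estrogen receptor gene ESR1 was at a mean of 0.681 CPM, EPCAM at 0.963 CPM and CDH1 at 1.23 CPM, while VIM, chosen after its values were seen, ran from 1175 to 1518 CPM. The other listed markers were higher, at means of 18.9 CPM for the progesterone receptor gene PGR, 20.2 CPM for GATA3, 20.2 CPM for FOXA1, 5.75 CPM for KRT8 and 44.8 CPM for KRT18. The libraries are named here by their labels. Of markers of other cell types, 3 of 12 leukocyte genes (1.93 to 3.47 CPM summed), 2 of 7 fibroblast genes (11.7 to 26.3 CPM) and 2 of 4 endothelial genes (0.975 to 1.92 CPM) were listed, and PTPRC, DCN and PECAM1 were not. The summed fibroblast genes, COL1A1 and COL3A1, were lower in every clone library than in WT of the same experiment. They were at 18.6 and 18.6 CPM in A1 against 25.8 and 26.3 CPM in WT of experiments 10 and 11, and at 11.7 and 13.7 CPM in A1 and 13.1 and 12.0 CPM in A2 against 20.4 and 18.8 CPM in WT of experiments 15 and 16. The summed luminal markers were lower in every clone library as well, at 108 and 118 CPM in A1 against 121 and 130 CPM in WT of experiments 10 and 11, and at 106 and 108 CPM in A1 and 106 and 102 CPM in A2 against 113 and 115 CPM in WT of experiments 15 and 16. The part of these shifts in the clone comparisons below was not tested. By the study's methods the spheroids were seeded from the labelled line alone. In bulk RNA, fewer cells expressing a gene and less RNA of it per cell cannot be told apart.

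NF-kB is a family of transcription factors built from RELA, RELB, REL and the proteins made from NFKB1 and NFKB2. In the canonical arm, receptors such as TNFRSF1A (TNF receptor 1) lead to the breakdown of the inhibitors made by NFKBIA and NFKBIE, which frees RELA with the NFKB1 product p50, and TNFAIP3 (A20) shuts the signal down. In the noncanonical arm, LTBR (lymphotoxin beta receptor) stabilises the kinase MAP3K14, which drives processing of the NFKB2 precursor p100 to p52, the partner of RELB. CXCL8, also called IL8, is a chemokine that attracts neutrophils and a well known target of RELA, and NFKBIA, NFKB2, RELB and TNFAIP3 are targets of the pathway too.

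The DNA just before the start of a gene is printed for CXCL8 and LTBR and for the 2 tested genes called in a comparison of A1, to show which of them carry the letters of an NF-kB (kappa B) site. The sequences are from RefSeq on GRCh38.p14, 5′ to 3′ on the strand of the gene, and capitals mark matches to the kappa B letters GGNNNTTCC or the AP-1 letters TGANTCA on either strand. CXCL8 is shown from 200 to 51 bases before its start (chr4:73740369-73740518, + strand), LTBR over the same distance (chr12:6383962-6384111, + strand), NFKB2 over the same distance before the most downstream of its 3 starts (chr10:102395505-102395654, + strand), and TNFAIP3 from 200 to 47 bases before its start (chr6:137867059-137867212, + strand). The windows of LTBR, NFKB2 and TNFAIP3 lie inside the gene intervals given below, which begin at a start further upstream than the one before which the sequence is printed.
CXCL8: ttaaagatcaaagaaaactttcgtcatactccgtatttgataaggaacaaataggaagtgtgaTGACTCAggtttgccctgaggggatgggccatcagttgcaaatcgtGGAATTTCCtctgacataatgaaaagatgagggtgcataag
LTBR: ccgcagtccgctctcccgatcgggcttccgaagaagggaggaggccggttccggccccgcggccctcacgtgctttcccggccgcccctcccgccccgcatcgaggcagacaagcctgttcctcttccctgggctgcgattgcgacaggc
NFKB2: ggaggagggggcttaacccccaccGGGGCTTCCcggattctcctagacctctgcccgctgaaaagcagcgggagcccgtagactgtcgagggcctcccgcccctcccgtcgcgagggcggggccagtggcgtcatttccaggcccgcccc
TNFAIP3: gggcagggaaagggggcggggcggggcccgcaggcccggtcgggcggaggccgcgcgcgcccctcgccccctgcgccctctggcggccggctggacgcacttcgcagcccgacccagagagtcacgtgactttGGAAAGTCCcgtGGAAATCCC
Over the full windows of 250 bases before and 50 after a start, 8 of the 10 genes had a sequence (12 windows in all), and RELB and NFKBIE were not in the table. The kappa B letters were in 6 of the 12 windows, from 5 genes (CXCL8, NFKB1, NFKB2, NFKBIA and TNFAIP3), and in 20.1% of all 35116 windows. The AP-1 letters were in 1 of the 12 windows, that of CXCL8, and in 7.71% of all windows. In CXCL8 the match GGAATTTCC began 91 bases, and TGACTCA 137 bases, before the start. In TNFAIP3 the letters GGAAAGTCC and GGAAATCCC, matches on the opposite strand, began 67 and 55 bases before it. LTBR, TNFRSF1A and RELA held neither motif in these windows. A match is a description of the letters and not a measured site.

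**Figure D1:**
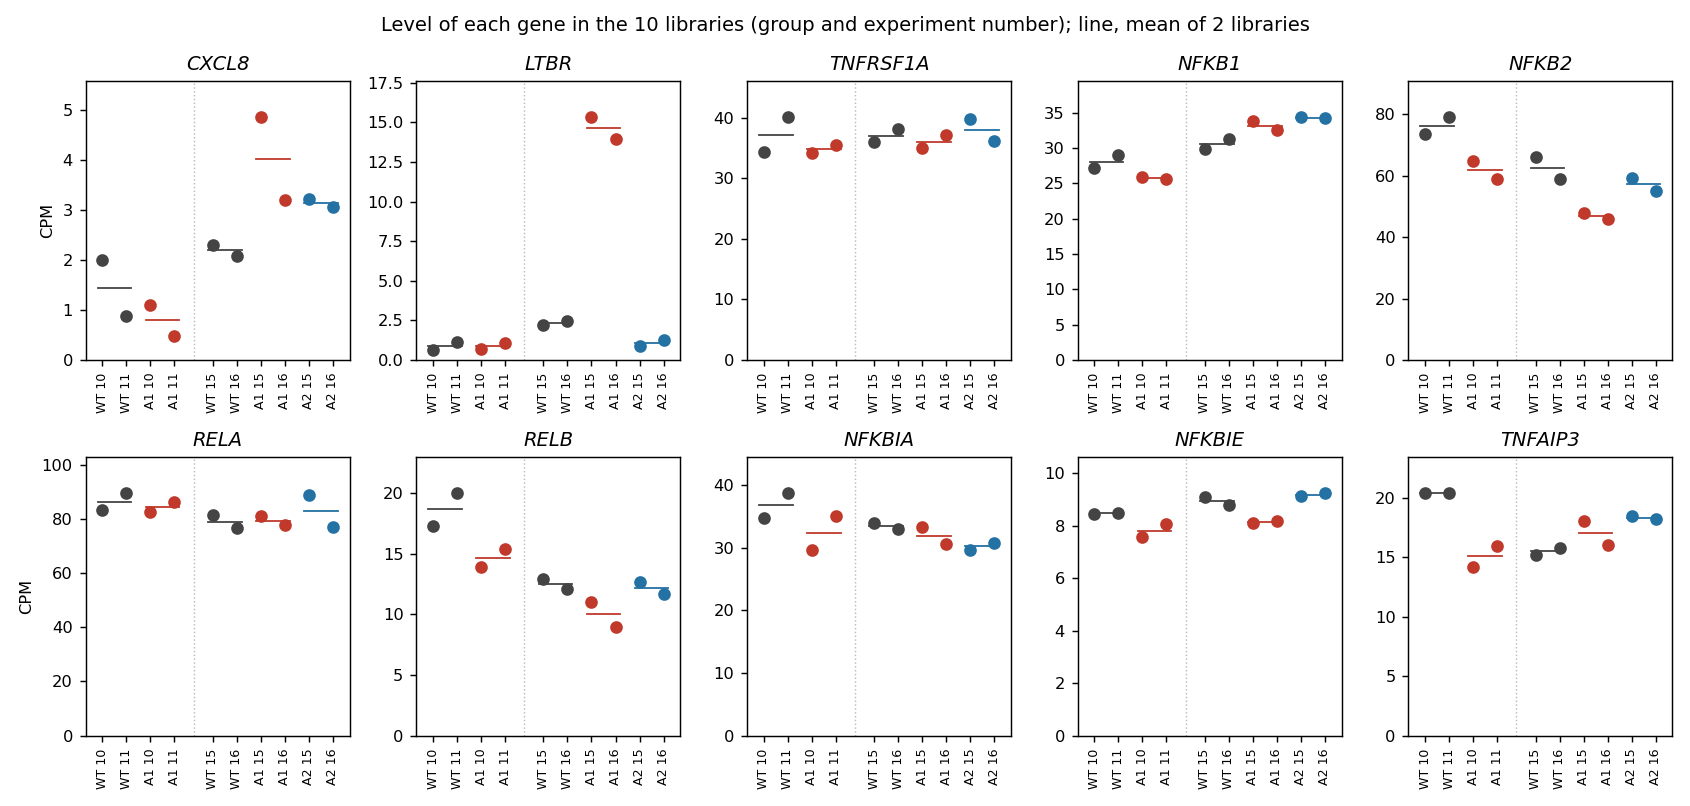
Level of the 10 genes (CPM, linear axis from 0) in each library, named by group and experiment number, with WT in grey, clone A1 in red, clone A2 in blue and a line at the mean of the 2 libraries of each group. LTBR stands at 15.3 and 14.0 CPM in A1 of experiments 15 and 16 and at or below 2.48 CPM in the other 8 libraries, while TNFRSF1A keeps between 34.2 and 40.1 CPM.

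The levels of the 10 genes spanned a wide range. Per kilobase of the MANE Select transcript, the WT mean over 4 libraries was 32.8 ± 2.14 CPM per kb (SD) for RELA, 23.0 ± 2.89 for NFKB2, 22.5 ± 1.62 for NFKBIA and 17.1 ± 1.16 for TNFRSF1A. NFKB1 (7.23 ± 0.428 CPM per kb) and RELB (6.89 ± 1.66) followed, which did not differ beyond their spread, and then TNFAIP3 (3.85 ± 0.607) and NFKBIE (3.71 ± 0.130), which did not either. CXCL8 was at 1.10 ± 0.388 and LTBR at 0.762 ± 0.405 CPM per kb, the lowest of the 10 and within each other's spread. CXCL8 rested on 22 to 212 reads per library and LTBR on 30 to 670, against at least 355 for each of the other genes.

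CXCL8 (chr4:73740569-73743716) was highest in the clones of experiments 15 and 16. It was at 4.84 and 3.19 CPM in A1, at 3.21 and 3.05 CPM in A2 and at 2.29 and 2.09 CPM in WT of those experiments. A1 of experiments 10 and 11 was at 1.10 and 0.479 CPM and WT at 2.00 and 0.877 CPM. Every clone library of experiments 15 and 16 was above both of their WT libraries, whereas in experiments 10 and 11 each A1 library was below the WT library of its own experiment and the groups overlapped. In order, the group means ran from A1 of experiments 15 and 16 (4.02 ± 1.17 CPM, SD of 2 libraries) through A2 (3.13 ± 0.114), WT of the same experiments (2.19 ± 0.147) and WT of experiments 10 and 11 (1.44 ± 0.791) to A1 of experiments 10 and 11 (0.789 ± 0.439). The first pair and the last pair in that order overlapped in their libraries. As log2 fold changes from the fit, A1 differed from WT by 0.88 ± 0.33 (SE) in experiments 15 and 16 and by -0.85 ± 0.40 in experiments 10 and 11, a gap of 1.72 ± 0.52 between the pairs. A2 differed from WT by 0.52 ± 0.33. The difference of A1 in experiments 15 and 16 was 0.54 without A1 of experiment 15 and 1.147 without A1 of experiment 16. Leaving out the WT library of experiment 10 brought the difference in experiments 10 and 11 to -0.15, and leaving out the A1 library of that experiment brought it to -1.57. The gap between the pairs was 1.03 without that WT library and 2.45 without that A1 library.

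On chromosome 4 around CXCL8, the median log2 fold change of the 64 other listed genes within 10 Mb was 0.40 in WT of experiments 15 and 16 against WT of experiments 10 and 11, where CXCL8 had 0.61. That value of CXCL8 was 0.13 without WT of experiment 11, below the median, and 1.31 without WT of experiment 10. In A1 against WT the median of the 64 genes was 0.15 in experiments 15 and 16 and -0.0017 in experiments 10 and 11. CXCL3, the next listed gene on one side, encodes another neutrophil chemokine, and its log2 fold change was 0.09 in A1 (adjusted p = 0.918) and 0.29 in A2 (adjusted p = 0.607) against WT in experiments 15 and 16 by edgeR. CXCL2 and CXCL3 are near-identical in parts, so their counts are uncertain.

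LTBR (chr12:6375160-6391566) was high in A1 of experiments 15 and 16 alone among the 5 groups. It was at 15.3 and 14.0 CPM there, against 2.22 and 2.48 CPM in WT and 0.852 and 1.27 CPM in A2 of the same experiments. A1 of experiments 10 and 11 was at 0.663 and 1.09 CPM and WT at 0.651 and 1.16 CPM. A1 of experiments 15 and 16 was apart from every other library, WT of experiments 15 and 16 was the next, and the other 3 groups overlapped. The log2 fold change of A1 against WT was 2.63 ± 0.22 in experiments 15 and 16, or 6.21-fold, and -0.06 ± 0.30 in experiments 10 and 11, a gap of 2.70 ± 0.38. A2 was below WT by a log2 fold change of -1.14 ± 0.26 and below A1 by -3.77 ± 0.24, so the clones lay on opposite sides of WT. Between the WT groups, the later experiment numbers had the higher level, by 1.37 ± 0.27. LTBR was picked for the gap of A1 between the experiment pairs, so its place among all genes was not read. Leaving out any 1 library kept the log2 fold change of A1 against WT in experiments 15 and 16 between 2.56 and 2.72. That in experiments 10 and 11 ran from -0.46 without A1 of experiment 11 to 0.42 without WT of experiment 11. The gap between the pairs ran from 2.21 to 3.09, and the difference between the WT groups from 1.01 to 1.85.

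The genes around LTBR are given as a description, since LTBR was picked for its A1 values and a gap to its neighbours follows from that choice. Of the 24 other listed genes within 500 kb, log2 fold changes of A1 against WT in experiments 15 and 16 ran from -0.58 to 0.49, with a median of -0.03. Only NOP2, an RNA methyltransferase gene of ribosome assembly, was called by edgeR (-0.30 ± 0.066, adjusted p = 0.0104). In A2 against WT, where LTBR was at -1.14, they ran from -0.78 for PIANP (adjusted p = 0.00193) to 0.25 for VWF (adjusted p = 0.599 by edgeR). PIANP and GNB3 (-0.57, adjusted p = 0.0261) fell there and TPI1 rose (0.18, adjusted p = 0.0420 by edgeR). In A1 against WT of experiments 15 and 16, TNFRSF1A, the next listed gene on one side at 33084 bp, was at -0.04 ± 0.088, and VAMP1 on the other side at 0.28 ± 0.11. SCNN1A overlaps LTBR in the RefSeq table and was not among the listed genes, and since the strand setting of the counting is not given in the sources used here, reads of an overlapping gene cannot be told apart.

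**Figure D2:**
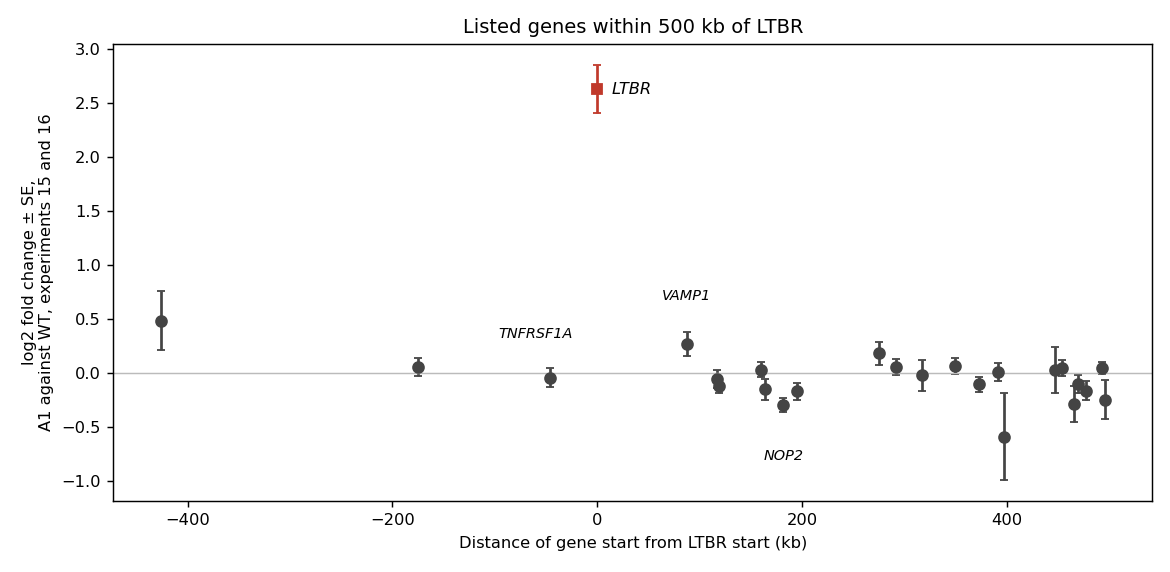
Log2 fold change (± SE) of A1 against WT in experiments 15 and 16 for LTBR, shown as a red square, and the 24 other listed genes within 500 kb, against the distance of each gene's start from the start of LTBR in kb. LTBR, which was picked for its A1 values, is at 2.63 and the others lie between -0.58 and 0.49.

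The genes whose log2 CPM followed CXCL8 and LTBR most closely over the 10 libraries were looked up among 12885 genes with a mean of at least 1 CPM. For CXCL8 they were ETV4, which encodes an ETS transcription factor (Pearson r = 0.973), ZMAT1 (0.968), SAP30 (0.966), TMEM67 (0.964) and USP43 (0.959). ETV4 was at 3.29 and 2.16 CPM in A1 of experiments 15 and 16 and at 0.684 and 0.566 CPM in A1 of experiments 10 and 11. For LTBR they were PTN, which encodes the growth factor pleiotrophin (0.977), YPEL1 (0.967), TXNIP (0.951), ZNF596 (0.944) and ABCG1 (0.934). PTN was at 25.1 and 26.0 CPM in A1 of experiments 15 and 16 and between 10.8 and 16.4 CPM in the other 8 libraries. None of the other 9 genes in the set was among these. These correlations share the 10 libraries and their groups, and they are the highest among the 12885.

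Among the 8 tested genes, NFKB2 was the member called in A1 against WT of experiments 15 and 16, where it fell, against 8.24% of all genes called in either direction by edgeR's quasi-likelihood test with Benjamini-Hochberg adjustment over all genes. That is 1 of 8, beside 3.95% of all genes called higher and 4.29% called lower. NFKB2 (chr10:102394110-102402529), the precursor of the noncanonical subunit p52, was at 48.0 and 46.03 CPM in A1 and at 66.0 and 59.0 CPM in WT. Both A1 libraries were below both WT libraries. The log2 fold change was -0.41 ± 0.081 with an adjusted p of 0.00495 by edgeR. In experiments 10 and 11 NFKB2 was at 64.8 and 59.0 CPM in A1 and at 73.5 and 79.0 CPM in WT, again without overlap, with a log2 fold change of -0.30 ± 0.079 and an adjusted p of 0.217 by edgeR. With the experiment number as a block that comparison was called (adjusted p = 0.00999 by edgeR). The difference between the experiment pairs was -0.11 ± 0.11 (adjusted p = 0.694 by edgeR). It was -0.19 without WT of experiment 16 and -0.02 without WT of experiment 15. In A2 NFKB2 was at 59.4 and 55.1 CPM, with a log2 fold change from WT of -0.13 ± 0.080 (adjusted p = 0.320 by edgeR). That value was -0.20 without WT of experiment 16 and -0.05 without WT of experiment 15. Against A1 of the same experiments A2 was at 0.28 ± 0.081, which did not pass (adjusted p = 0.0605 by edgeR) and did with the experiment block (adjusted p = 0.00543 by edgeR). The median log2 fold change of the 136 other listed genes within 10 Mb of NFKB2 was -0.18 in A1 and -0.27 in A2 against WT of experiments 15 and 16, and its neighbour GBF1 was called in A1 (-0.37, adjusted p = 0.0131 by edgeR). In experiments 10 and 11 the median of that stretch was -0.03. Without A1 of experiment 16 or WT of experiment 15 the call of NFKB2 in A1 was lost, with adjusted p of 0.0571 and 0.0952 by edgeR. NFKB2 was called in A1 of experiments 10 and 11 without WT of experiment 10 (adjusted p = 0.0184), and in A2 against A1 without WT of experiment 10 or 11 (adjusted p = 0.0210 and 0.0189 by edgeR).

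RELB (chr19:45001464-45038192), the partner of p52, had a pattern near that of NFKB2. It was at 11.01 and 8.97 CPM in A1 and at 12.9 and 12.1 CPM in WT of experiments 15 and 16, and at 13.9 and 15.4 CPM in A1 and 17.3 and 19.99 CPM in WT of experiments 10 and 11. A1 lay below WT without overlap in both pairs. The log2 fold changes were -0.32 ± 0.12 (adjusted p = 0.113) and -0.35 ± 0.11 (adjusted p = 0.334 by edgeR), which did not pass. With the experiment block both did, with adjusted p of 0.0202 and 0.0384 by edgeR. The value in experiments 15 and 16 was -0.48 without A1 of experiment 15 and -0.18 without A1 of experiment 16, and that in experiments 10 and 11 was called without WT of experiment 10 (-0.45, adjusted p = 0.0313 by edgeR). A2 was at 12.7 and 11.7 CPM, a log2 fold change from WT of -0.04 ± 0.12 (adjusted p = 0.879 by edgeR). RELB lies on a stretch of chromosome 19 where the 400 other genes had medians of -0.19 in experiments 15 and 16 and -0.11 in experiments 10 and 11 for A1 against WT. Over the 10 libraries the log2 CPM of RELB and NFKB2 had a Pearson r of 0.917, the highest among the 10 genes, as a description over libraries that share their groups.

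The canonical subunits kept close to WT. NFKB1 (chr4:102501359-102617302), the precursor of p50, was at 33.8 and 32.6 CPM in A1, 34.4 and 34.2 CPM in A2 and 29.9 and 31.3 CPM in WT of experiments 15 and 16. The log2 fold changes from WT were 0.12 ± 0.077 in A1 (adjusted p = 0.403) and 0.16 ± 0.076 in A2 (adjusted p = 0.162 by edgeR), and the 58 genes around it had medians of 0.13 in both. In experiments 10 and 11 it was at 25.9 and 25.6 CPM in A1 and at 27.2 and 29.0 CPM in WT, a log2 fold change of -0.12 ± 0.077 (adjusted p = 0.554 by edgeR). RELA (chr11:65653601-65663857), the main activating subunit, ran from 76.5 to 89.5 CPM over all 10 libraries, and its log2 fold changes in A1 and A2 against WT lay between -0.03 and 0.07. Neither subunit was called in any comparison.

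The receptor TNFRSF1A (chr12:6328771-6342076) ran from 34.2 to 40.1 CPM over all libraries, with log2 fold changes of A1 against WT of -0.04 ± 0.088 in experiments 15 and 16 and -0.10 ± 0.088 in experiments 10 and 11, and of A2 of 0.04 ± 0.088. Of the inhibitors, NFKBIA (chr14:35401513-35404749), which encodes IkB alpha, ran from 29.6 to 38.7 CPM and NFKBIE (chr6:44258166-44265551), which encodes IkB epsilon, from 7.55 to 9.23 CPM. The log2 fold change of NFKBIA was -0.07 ± 0.092 in A1 and -0.14 ± 0.092 in A2 against WT of experiments 15 and 16, and -0.19 ± 0.091 in A1 of experiments 10 and 11 (adjusted p = 0.728, 0.321 and 0.476 by edgeR). The first of these was -0.13 without A1 of experiment 15 and -0.01 without A1 of experiment 16. The last was -0.31 without A1 of experiment 11 and -0.07 without A1 of experiment 10. NFKBIE was at 8.11 and 8.17 CPM in A1, 9.13 and 9.23 CPM in A2 and 9.10 and 8.77 CPM in WT of experiments 15 and 16, and neither clone was called. In experiments 10 and 11 it was at 7.55 and 8.07 CPM in A1 and 8.44 and 8.49 CPM in WT, a log2 fold change of -0.12 ± 0.11 (adjusted p = 0.681 by edgeR). None of these 3 genes passed the test in any comparison.

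TNFAIP3 (chr6:137866349-137883312), the feedback regulator A20, was the tested gene whose A1 difference was not the same in the experiment pairs. It was at 14.2 and 15.99 CPM in A1 and at 20.4 CPM in both WT libraries of experiments 10 and 11, and at 18.1 and 15.99 CPM in A1 and 15.2 and 15.8 CPM in WT of experiments 15 and 16. A1 lay below WT in the earlier experiment numbers and above it in the later ones, without overlap in either. The log2 fold changes were -0.44 ± 0.095 (adjusted p = 0.0888 by edgeR) and 0.14 ± 0.096 (adjusted p = 0.446 by edgeR). Their difference was 0.57 ± 0.13 with an adjusted p of 0.0330 by edgeR, 1 of 8 genes called where 2.5% of all genes were called for this difference (1.56% higher, 0.941% lower). With the experiment block the value in experiments 10 and 11 was called (adjusted p = 0.00693 by edgeR), as it was without WT of experiment 10 (adjusted p = 0.0215 by edgeR). The value in experiments 15 and 16 was 0.04 without A1 of experiment 15 and 0.22 without A1 of experiment 16. A2 was at 18.4 and 18.2 CPM, above both WT libraries, with a log2 fold change of 0.24 ± 0.095 (adjusted p = 0.101 by edgeR) that passed with the experiment block (adjusted p = 0.0479 by edgeR). The 61 genes around TNFAIP3 had medians of 0.06 and 0.05 for A1 against WT in the earlier and later pair. The call of the difference was lost in 6 of the 10 fits that left out 1 library, with an adjusted p of up to 0.202 without A1 of experiment 10 (edgeR), and when the A2 libraries were left out of the fit (adjusted p = 0.0504 by edgeR).

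**Figure D3:**
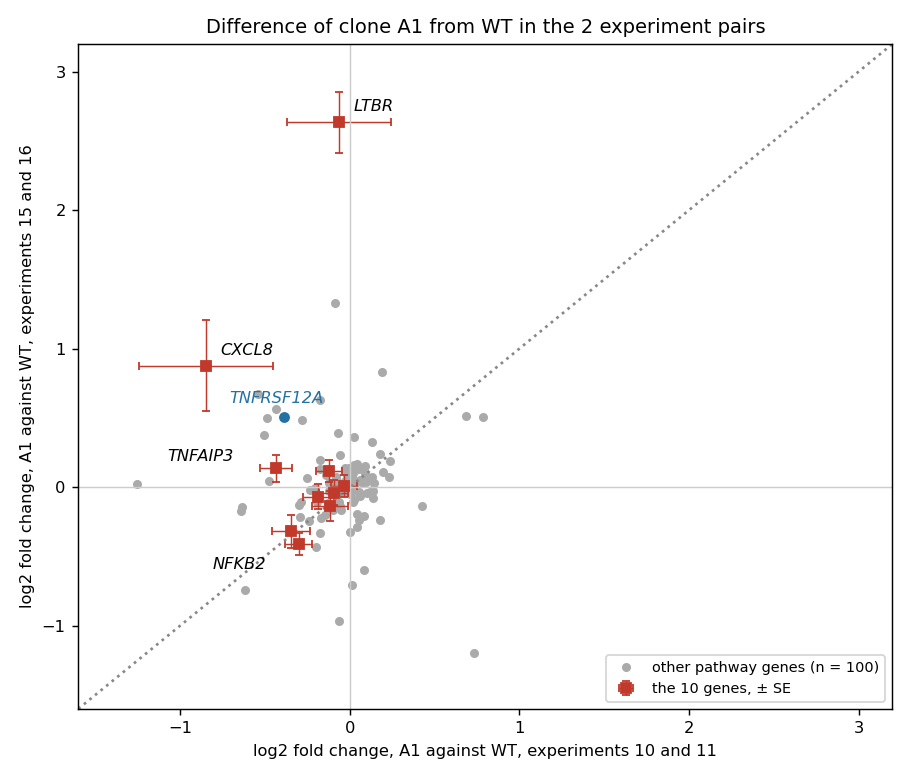
Log2 fold change of A1 against WT in experiments 10 and 11 (horizontal) and in experiments 15 and 16 (vertical) for the 10 genes as red squares with SE and 100 other pathway genes as grey dots, TNFRSF12A in blue, with a dotted line where both are equal. CXCL8 and TNFAIP3 lie left of 0 and above 0, LTBR lies near 0 in experiments 10 and 11 and at 2.63 in experiments 15 and 16, and NFKB2 lies below 0 in both.

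The listed genes next to the other members were RASSF6 and CXCL3 (CXCL8), CD9 (TNFRSF1A), SLC39A8 and MANBA (NFKB1), SIPA1 and KAT5 (RELA), CLPTM1 and CLASRP (RELB), PSMA6 and RALGAPA1 (NFKBIA), SLC35B2 and DRC5 (NFKBIE), and IFNGR1 and PERP (TNFAIP3). None of these was called in A1 or A2 against WT of experiments 15 and 16 by edgeR, and their lowest adjusted p was 0.0904, for DRC5 in A2. PSD, on the other side of NFKB2 from GBF1 at 90 bp, fell in A2 (-0.70, adjusted p = 0.0253 by edgeR). NFKB1-AS1, LOC124900742 and LOC105377347 overlap NFKB1, RELA-DT overlaps RELA and WAKMAR2 overlaps TNFAIP3 in the RefSeq table, and none of these was among the listed genes.

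In the remaining comparisons of the clones, 0 of 8 genes passed. For A2 against WT in experiments 15 and 16 this stood beside 16.4% of all genes called by edgeR (7.33% higher, 9.07% lower). For A2 against A1 it stood beside 4.14% (1.07% higher, 3.07% lower), and for A1 against WT in experiments 10 and 11 beside 0.194% (0.0287% higher, 0.165% lower). At an unadjusted p under 0.05 there were 2, 2 and 3 of 8, beside 29.4%, 16.2% and 10.6% of all genes. Other tools gave 0 of 8 for A2 against WT, while DESeq2 called NFKB2 in A2 against A1 (adjusted p = 0.0325) and TNFAIP3 in A1 against WT of experiments 10 and 11 (adjusted p = 0.0235). With all 6 KO libraries set against all 4 WT libraries, edgeR called 0 of 8 and 0% of all genes, where 1172 genes and 2 of the 8, NFKB2 and NFKBIA, had an unadjusted p under 0.05. That fit joins the clones and the experiment pairs, and SAMHD1 itself did not pass in it (-1.67 ± 0.36, adjusted p = 0.508 by edgeR). DESeq2 called 34 genes in it and limma 0, none of them among the 8. CXCL8, described without a test, was at 0.54 ± 0.52 in the joined edgeR fit, and from 0.28 to 0.76 when 1 library was left out. The study describes IL8 as lower in KO spheroids, in its sequencing counts without reaching significance, and by RT-PCR and protein in additional spheroids.

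WT alone differed between the experiment pairs for 3 of the 8 genes, against 16.4% of all genes called, 8.61% higher and 7.74% lower, by edgeR. RELB fell from 17.3 and 19.99 CPM in experiments 10 and 11 to 12.9 and 12.1 CPM in experiments 15 and 16, a log2 fold change of -0.58 ± 0.11 (adjusted p = 0.00304 by edgeR). TNFAIP3 fell by 0.39 ± 0.095 on the log2 scale (adjusted p = 0.0101 by edgeR) and NFKB2 by 0.29 ± 0.079 (adjusted p = 0.0216 by edgeR). For RELB and NFKB2 the stretches around them had medians of -0.19 and -0.17, and for TNFAIP3 of 0.05. The call of RELB held in each fit that left out 1 library. That of NFKB2 was lost without WT of experiment 11 or 16, and that of TNFAIP3 without WT of experiment 15 or 16. Between these WT groups the mitochondrial share went from 7.79% and 8.41% to 10.7% and 9.92%, the summed luminal markers from 121 and 130 to 113 and 115 CPM and the summed fibroblast markers from 25.8 and 26.3 to 20.4 and 18.8 CPM, and their part in these differences was not tested. What else differed between the experiment pairs is not stated, so culture, handling and sequencing cannot be told apart here.

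**Figure D4:**
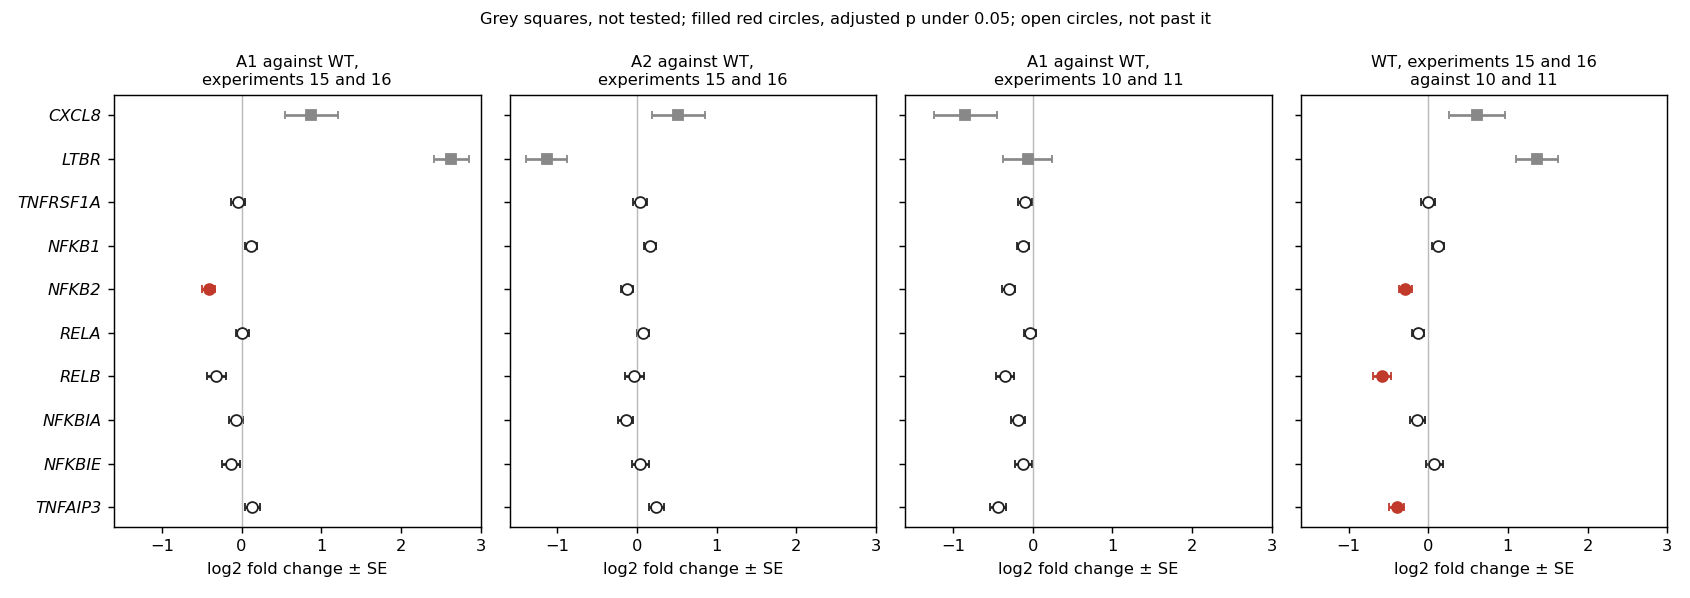
Log2 fold change (± SE) of the 10 genes in 4 comparisons, with CXCL8 and LTBR as grey squares that were not tested, genes past an adjusted p of 0.05 as filled red circles and the others as open circles. NFKB2 is filled in A1 against WT of experiments 15 and 16, none is filled in A2 or in experiments 10 and 11, and NFKB2, RELB and TNFAIP3 are filled in WT between the experiment pairs.

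Of 136 other genes of the pathway in 6 lists, 100 were among the listed genes. By edgeR, 5 of the 100 were called in A1 against WT of experiments 15 and 16 (4 higher, 1 lower), beside the 8.24% of all genes. In A2 against WT 16 were called (8 higher, 8 lower), beside 16.4%, and in A2 against A1 7 (1 higher, 6 lower), beside 4.14%. In A1 against WT of experiments 10 and 11 the count was 0, beside 0.194% of all genes, with 15 of the 100 at an unadjusted p under 0.05, beside 10.6% of all genes. The median log2 fold change of the 100 genes was 0.03 in A1 and 0.01 in A2 against WT of experiments 15 and 16, where that of all genes was 0.0031 and 0.0071.

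Among the receptors, 23 of 32 were listed. TNFRSF12A, the receptor of TWEAK, rose in both clones, from 10.4 and 9.75 CPM in WT to 15.8 and 12.8 CPM in A1 and 18.6 and 18.0 CPM in A2 of experiments 15 and 16 (log2 fold changes 0.50 ± 0.13 and 0.86 ± 0.13, adjusted p = 0.0237 and 0.000254 by edgeR). In experiments 10 and 11 it was at 5.29 and 6.90 CPM in A1 and 8.37 and 7.57 CPM in WT, below WT without overlap. Of the 100 genes it was the only one called for the difference of A1 between the experiment pairs (0.89 ± 0.19, adjusted p = 0.0186 by edgeR), beside 2.5% of all genes. EDA2R, the receptor of ectodysplasin A2, was at 12.7 and 13.8 CPM in A2 and between 25.2 and 36.8 CPM in the other 8 libraries, and it fell in A2 against WT by 1.01 ± 0.11 on the log2 scale (adjusted p = 1.68e-05 by edgeR). NGFR and TNFRSF10A, the latter a TRAIL receptor, rose in A2 as well, and the interleukin 17 receptor gene IL17RA fell. FAS, the death receptor, fell in A1 of experiments 15 and 16 by 0.33 ± 0.084 (adjusted p = 0.0225 by edgeR), and was at -0.17 ± 0.082 in A1 of experiments 10 and 11 (adjusted p = 0.471 by edgeR). Against A1 of experiments 15 and 16, EDA2R (-0.998 ± 0.110, adjusted p = 3.22e-05) and IL17RA (-0.47 ± 0.095, adjusted p = 0.00691 by edgeR) were lower in A2.

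Of the 16 ligands 5 were listed, and none was called in any comparison, beside shares of up to 16.4% of all genes by edgeR, with up to 2 at an unadjusted p under 0.05 in a comparison. The ligands of LTBR, encoded by LTA, LTB and TNFSF14, and the ligand of TNFRSF1A, encoded by TNF, were not among the listed genes.

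All 25 kinases and adaptors were listed, and 0 were called in A1 against WT of experiments 15 and 16, beside 8.24% of all genes, with 5 at an unadjusted p under 0.05 by edgeR, beside 22.5% of all genes. MAP3K14, the kinase of the noncanonical arm, was at 14.0 and 13.4 CPM in A1, 17.7 and 14.9 CPM in WT and 21.0 and 19.2 CPM in A2 of experiments 15 and 16. It rose in A2 against WT (0.31 ± 0.10, adjusted p = 0.0463) and against A1 (0.55 ± 0.10, adjusted p = 0.00307 by edgeR). The first of these calls was lost by DESeq2 (adjusted p = 0.0502). The adaptor TRAF2, which with TRAF3 keeps MAP3K14 low, rose in A2 (0.34 ± 0.078, adjusted p = 0.00656 by edgeR). TAB1 (-0.51 ± 0.088), TRAF5 (-0.46 ± 0.089) and CARD10 (-0.64 ± 0.13) fell in A2, with adjusted p of 0.000812, 0.00183 and 0.00261 by edgeR. The same 3 were lower in A2 than in A1 of experiments 15 and 16, by -0.55 ± 0.088, -0.56 ± 0.088 and -0.51 ± 0.13 (adjusted p = 0.000905, 0.000877 and 0.0328 by edgeR). TAB1 is a partner of the kinase MAP3K7, TRAF5 an adaptor of TNF family receptors and CARD10 a scaffold of the BCL10 complex.

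Of the 9 other subunits and inhibitors, all listed, NFKBID alone was called in a clone, in A2, where it fell (-0.52 ± 0.12, adjusted p = 0.00649 by edgeR). That is 11.1% of the list, beside 16.4% of all genes called in A2 and 9.07% called lower. Of the 14 ubiquitin and feedback regulators, also all listed, USP18 rose in A1 of experiments 15 and 16 (0.39 ± 0.11, adjusted p = 0.0322) and OTULIN, a linear-chain deubiquitinase, in A2 (0.23 ± 0.070, adjusted p = 0.0363 by edgeR), each 7.14% of the list beside 8.24% and 16.4% of all genes. In A1 of experiments 10 and 11 USP18 was at -0.07 ± 0.11 (adjusted p = 0.819), and it was lower in A2 than in A1 of experiments 15 and 16 (-0.64 ± 0.11, adjusted p = 0.00143 by edgeR). USP18 is better known as the enzyme that removes ISG15 and is an interferon-induced gene.

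Of the 40 target genes 24 were listed, and 2 were called in A1 and 4 in A2 against WT of experiments 15 and 16 by edgeR. These are 8.33% and 16.7% of the listed targets, near the 8.24% and 16.4% of all genes. TNFAIP2 rose in both, from 18.2 and 17.0 CPM in WT to 33.5 and 29.4 CPM in A1 (0.83 ± 0.12, adjusted p = 0.000489) and 29.7 and 31.8 CPM in A2 (0.80 ± 0.12, adjusted p = 0.000305 by edgeR). The groups of experiments 10 and 11 overlapped, at 5.89 and 8.37 CPM in A1 and 5.90 and 6.59 CPM in WT, and in WT it rose between the experiment pairs by 1.496 ± 0.134 (adjusted p = 4.09e-06 by edgeR). PLAU, the gene of urokinase, rose in A1 of experiments 15 and 16 (0.63 ± 0.18, adjusted p = 0.0456 by edgeR, 0.0526 by limma) and was at -0.17 ± 0.20 in A1 of experiments 10 and 11 (adjusted p = 0.751 by edgeR). IL32 rose in A2 (0.94 ± 0.22, adjusted p = 0.00714 by edgeR). PLAU and IL32 had at least 77 and 58 reads per library. CXCL16, a chemokine gene, and CCND1, the gene of cyclin D1, fell in A2 by 0.29 ± 0.092 and 0.26 ± 0.076 (adjusted p = 0.0374 and 0.0266 by edgeR). ICAM1, CCL2, CCL20 and CXCL1, other well known targets, were not among the listed genes. The comparisons of A1 and of A2 with WT share the 2 WT libraries of experiments 15 and 16.

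**Figure D5:**
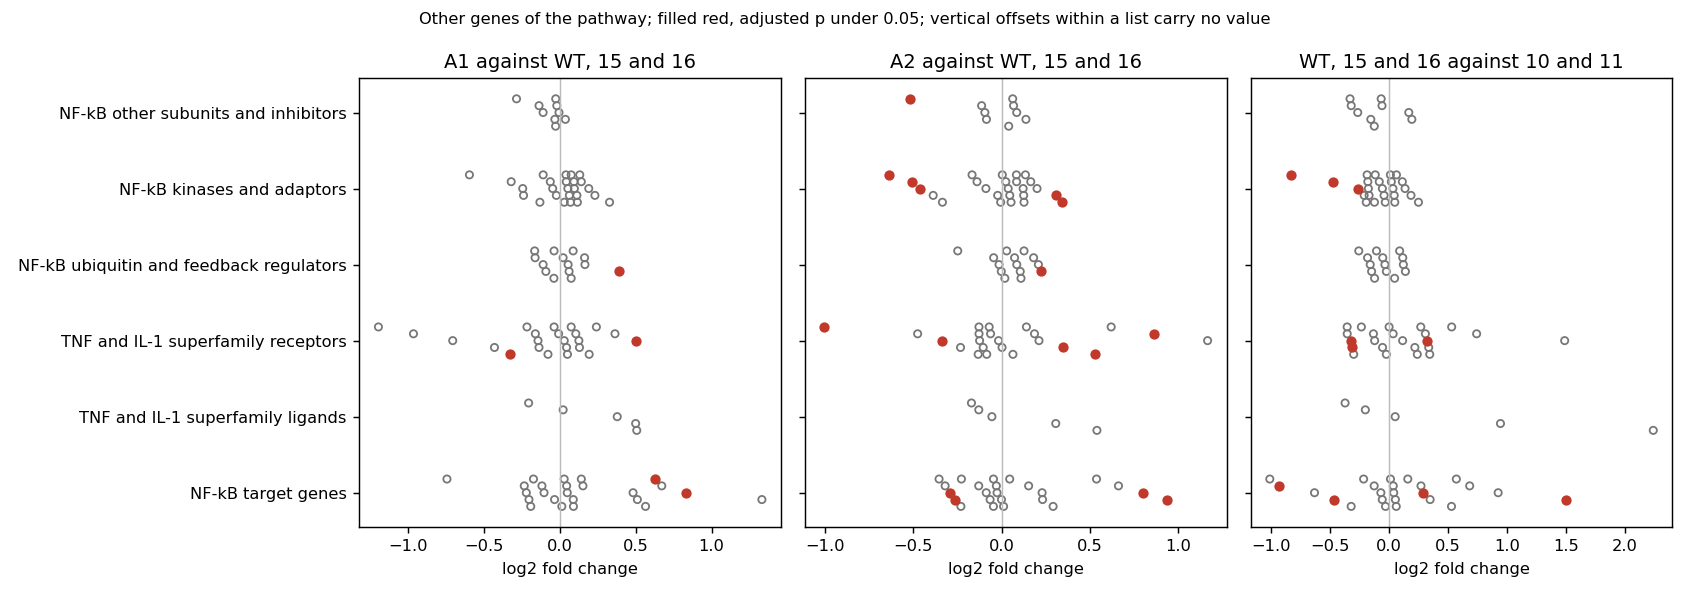
Log2 fold change of the 100 other pathway genes by list in A1 and A2 against WT of experiments 15 and 16 and in WT of experiments 15 and 16 against WT of experiments 10 and 11, with genes past an adjusted p of 0.05 in filled red. The panels hold 5, 16 and 10 filled points, and the ligands have none.

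Between the WT libraries of the experiment pairs 10 of the 100 genes were called (3 higher, 7 lower) by edgeR, beside 16.4% of all genes. IKBKE, a kinase of the interferon arm, was at 2.06 and 2.49 CPM in experiments 10 and 11 and at 1.21 and 1.35 CPM in experiments 15 and 16, a log2 fold change of -0.83 ± 0.25 (adjusted p = 0.0344 by edgeR). The adaptor gene MYD88 and CARD10 fell too, as did the stress-response genes GADD45B and IER3, and TNFRSF19 and TNFAIP8 rose with TNFAIP2. The receptor genes EDA2R (-0.31 ± 0.10, adjusted p = 0.0494) and IL17RA (-0.32 ± 0.093, adjusted p = 0.0261 by edgeR), which fell in A2, also fell here. Without the A2 libraries in the fit, the calls of MYD88, EDA2R, TNFAIP8 and GADD45B were lost (adjusted p = 0.0526, 0.0557, 0.050004 and 0.0520 by edgeR). That of EDA2R was lost as well by limma (adjusted p = 0.0616) and with genes of a mean count under 10 left out (adjusted p = 0.0503 by edgeR). GADD45B was at 7.11 and 14.1 CPM in the WT libraries of experiments 10 and 11, and its log2 fold change was -0.35 without the higher of these and -0.93 with both.

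When 1 library was left out at a time, the calls of TNFAIP2 in both clones and of TNFRSF12A, EDA2R, TAB1 and TRAF5 in A2 against WT held in all 10 fits. In A1 against WT of experiments 15 and 16, those of USP18, FAS and PLAU were lost without any 1 of the 4 libraries compared (adjusted p up to 0.212, 0.141 and 0.215 by edgeR), and PLAU also without either A2 library. That of TNFRSF12A in A1 was lost without A1 of experiment 15 or either WT library (up to 0.256), and its difference between the experiment pairs without A1 of experiment 10 or 15 or WT of experiment 16 (up to 0.140). In A2 against WT, the calls of TNFRSF10A, IL17RA, CCND1, OTULIN and CXCL16 were lost without any 1 of the 4 libraries compared (up to 0.152, 0.204, 0.213, 0.284 and 0.197), the last 2 also without either A1 library of experiments 10 and 11. NFKBID and IL32 were lost without A2 of experiment 16 or WT of experiment 15 (up to 0.0944 and 0.0823), TRAF2 and NGFR without A2 of experiment 15 or WT of experiment 16 (up to 0.0640 and 0.0720), and CARD10 without A2 of experiment 16 (0.0662). MAP3K14 in A2 was lost in 7 of the 10 fits against WT (up to 0.395 without WT of experiment 16, where its log2 fold change was 0.19, against 0.43 without WT of experiment 15) and without A2 of experiment 15 against A1 (0.0576). In A2 against A1, CARD10 was lost without A1 of experiment 10, 11 or 16 or A2 of experiment 16, with a log2 fold change of -0.34 without A1 of experiment 16 and of -0.34 without A2 of experiment 16 (adjusted p up to 0.335 by edgeR), and IL17RA without A1 of experiment 15 or 16 or A2 of experiment 16 (up to 0.118). Between the WT libraries of the experiment pairs, TNFAIP2 was called in all 10 fits, and each of the other 9 lost its call without at least 1 of the WT libraries. Those of EDA2R and MYD88 were lost in 9 of the 10 fits (adjusted p up to 0.390 and 0.328 by edgeR), and EDA2R ran from -0.47 without WT of experiment 10 to -0.15 without WT of experiment 11. IL17RA was at -0.21 without WT of experiment 11, IER3 at -0.25 without WT of experiment 10 and TNFRSF19 at 0.21 without WT of experiment 16.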

How the data were processed

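RNA of 10 spheroid libraries labelled T47D was sequenced from TruSeq stranded mRNA libraries (the labels name a Maxwell simplyRNA kit for the extraction, the study's methods a NucleoSpin kit). The authors deposited raw counts per gene in 1 table of 13920 genes, and their processing notes name HISAT2, StringTie and GRCh38. The counting program and its strand setting are not given in the sources used here. The lowest count in the table is 1, so genes with a 0 in any library are not in it. Replicates were not pooled.

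Libraries were grouped by genotype, clone and experiment number in the labels. Counts were tested with edgeR 4.0.16 (R 4.3.3), with TMM scaling, robust quasi-likelihood fits and Benjamini-Hochberg adjustment over all 13920 genes at 0.05. All 10 libraries entered 1 fit of 5 groups of 2 (WT and A1 of experiments 10 and 11; WT, A1 and A2 of experiments 15 and 16), and KO against WT was a fit of 6 against 4. SE is the absolute log2 fold change over the square root of F. Likeness used log2 CPM with a prior count of 2. Gene names and positions came from RefSeq (13885 genes matched, 35 kept by identifier). Stretches are 10 Mb to each side. Bases nearest the gene start were left out of the printed promoters because GENCODE places exons of other transcripts there. The 10 genes, the lists and the tests were chosen with earlier results of these data known. The text names all 10 genes, SAMHD1, neighbours, the 5 genes most like CXCL8 and LTBR and, per list and comparison, up to 3 genes called in each direction with the largest log2 fold change. CXCL8 and LTBR have no p-value because their choice used these contrasts.

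The experiment number marks libraries made in 1 experiment by the labels, so it pairs libraries across groups. Deviations from group means of same-numbered libraries had correlations of 0.0844 in experiments 10 and 11 and of 0.103 to 0.151 in experiments 15 and 16. Alternatives were limma 3.58.1, DESeq2 1.42.0 (used by the study), RLE scaling, dropping genes with a mean count under 10, a block for the experiment number, the libraries of 1 experiment pair, and each library left out. The steps were tested on simulated counts for the 13920 genes with 200 genes changed by a log2 fold change of 1: edgeR found 183 of them in A1 against WT of experiments 15 and 16 (9 false calls) and 78 for the difference between the experiment pairs (2 false calls). The simulation gave every gene the same spread, held no differences between experiments or clones and left genes of low count unchanged. It therefore does not show how often the steps find or miss a change in these libraries. Library totals were 40077369 to 51311482.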

Additional observations from a re-analysis of the deposited data

Results flagged for a closer look

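The A1 library of experiment 10 stood apart from the other 3 A1 libraries for NFKBIE, at 7.55 CPM against 8.07 to 8.17 CPM (Dixon ratio 0.845, critical value 0.829 for 4 libraries). This 1 came from 16 groups of 4 libraries checked, CXCL8 and LTBR left out, and chance gives about 1 in 20. Each group spans both experiment pairs, so a difference between the pairs enters the ratio, and A1 of both pairs is not shown to be 1 clone.

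For TNFAIP3 the difference of A1 from WT was not the same in the experiment pairs, by 0.571 on the log2 scale (adjusted p = 0.0330 by edgeR). For TNFRSF12A, the receptor of TWEAK, that difference was 0.893 (adjusted p = 0.0186 by edgeR). Both genes lay below WT in A1 of experiments 10 and 11 and above WT in A1 of experiments 15 and 16, in 2 of 2 libraries each time.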

How the results depend on the processing

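CXCL8 rests on 22 to 212 reads per library and LTBR on 30 to 670, which limits their precision. Numbers of genes called by edgeR moved by over 1.5 times under these alternatives. With a replicate block for the experiment number they were 2411 for A1 and 3673 for A2 against WT of experiments 15 and 16, 1213 for A2 against A1, 382 for A1 against WT of experiments 10 and 11, 1247 for the difference between experiment pairs, 4039 for WT between pairs (where the block removes the spread between experiments, against which that comparison should be read) and 97 for KO against WT. DESeq2 gave 63, 535 and 34 for A1 in experiments 10 and 11, the difference and KO against WT. Fits of 1 experiment pair alone gave 1834 for A1 against WT in experiments 15 and 16, 1390 for KO against WT there and 12 for A1 in experiments 10 and 11. Of the 8 tested genes, the block called 2, 1 and 1 in A1 against WT, A2 against WT and A2 against A1 of experiments 15 and 16, and 3 in A1 of experiments 10 and 11. DESeq2 called 1 in A2 against A1 and 1 in A1 of experiments 10 and 11, and the fit of experiments 15 and 16 alone 1 in A2 against A1. Without the A2 libraries the difference called 0. The block changed no other call of the 8.

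Without 1 library, where a lone library is assumed to vary like the other groups, numbers of genes called ran from 343 to 2000 (A1) and 1020 to 3199 (A2) against WT, 268 to 959 (A2 against A1), 7 to 1361 (A1, experiments 10 and 11, highest without WT of experiment 10), 88 to 1123 (difference) and 820 to 3658 (WT between pairs), and were 0 for KO against WT. Members called ran from 0 to 1, 0 to 0, 0 to 1, 0 to 3, 0 to 1 and 1 to 3. Signs of small, uncalled log2 differences turned in some of these fits. TNFRSF1A ran from -0.083 to 0.0034 (A1) and -0.037 to 0.11 (A2) against WT of experiments 15 and 16, -0.21 to 0.022 for A1 in experiments 10 and 11, -0.061 to 0.17 for the difference, -0.12 to 0.11 for WT between pairs and -0.072 to 0.0063 for KO against WT. RELA ran in the same order, WT between pairs left out, from -0.034 to 0.055, -0.033 to 0.18, -0.093 to 0.019, -0.0097 to 0.10 and -0.042 to 0.034, and for A2 against A1 from -0.043 to 0.16. RELB ran from -0.098 to 0.028 in A2 against WT and from -0.13 to 0.17 for the difference, NFKBIE from -0.065 to 0.031 for the difference, and LTBR from -0.46 to 0.42 for A1 in experiments 10 and 11. For KO against WT, RELA turned to 0.0084 with the block and to 0.040, and TNFAIP3 to 0.19, with the libraries of experiments 15 and 16 alone. The cause was not tested.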
